A study of Homo sapiens with 6 samples.

Results

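The genes described here are 10 core components of the Wnt and β-catenin pathway, namely *LRP5*, *LRP6*, *DVL1*, *APC*, *AXIN1*, *AXIN2*, *GSK3A*, *GSK3B*, *CTNNB1*, and *TCF7L2*. They were chosen by name, through the Ensembl identifiers of the expression table, and all 10 were present among its 29483 genes. The RNA came from HK-2, an established human renal proximal tubular epithelial line, and all cells had been held in high glucose (HG, 25 mM) over 7 days. The control group (3 replicates) received nothing further, while the case group (3 replicates) received TEPP-46, an activator of the glycolytic enzyme PKM2, at 10 μM during 1 more day. A control group in normal glucose was not analysed here, so every value below refers to cells in HG. The replicates were separate cell samples of 1 line, and P-values measure the spread between them only. Expression was given as FPKM, the reads of a gene divided by its length and by the size of its library. Whole reads recovered from these values summed to 18583948, 17874498, and 17330232 for control replicates 1 to 3 and to 16663910, 16001772, and 15319269 for case replicates 1 to 3.

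In the absence of a Wnt signal, β-catenin is held at a low level by a destruction complex, in which the scaffolds APC and AXIN bring it to the kinases GSK3 and CK1 for phosphorylation and subsequent degradation. When a Wnt ligand joins a Frizzled receptor with the co-receptor LRP5 or LRP6, the adaptor Dishevelled (DVL) draws AXIN to the membrane, β-catenin accumulates, and together with TCF/LEF factors it activates target genes in the nucleus. A separate pool of β-catenin links cadherins to α-catenin at adherens junctions. In the kidney, the pathway takes part in tubule formation and is known to be reactivated in injured tubules. Most of this control acts on proteins, which RNA does not measure.

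Promoter sequences are shown for the 3 core genes that were downregulated, because these are the genes on which the comparison turns. They are the 150 bases before a RefSeq transcription start (GRCh38.p14), at chr11:68312441-68312590 on the plus strand for *LRP5*, chr3:120094448-120094597 on the minus strand for *GSK3B*, and chr3:41199355-41199504 on the plus strand for *CTNNB1*. The gene spans given below are those of GENCODE, another annotation, and for *GSK3B* and *CTNNB1* these spans include the stretch shown. Capitals mark the GC box GGGCGG on either strand.
LRP5: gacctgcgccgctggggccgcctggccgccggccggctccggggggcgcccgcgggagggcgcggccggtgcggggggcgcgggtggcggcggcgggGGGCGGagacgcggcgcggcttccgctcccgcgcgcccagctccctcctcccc
GSK3B: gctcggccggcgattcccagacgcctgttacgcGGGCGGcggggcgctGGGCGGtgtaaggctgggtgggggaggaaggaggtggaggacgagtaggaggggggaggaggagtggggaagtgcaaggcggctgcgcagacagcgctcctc
CTNNB1: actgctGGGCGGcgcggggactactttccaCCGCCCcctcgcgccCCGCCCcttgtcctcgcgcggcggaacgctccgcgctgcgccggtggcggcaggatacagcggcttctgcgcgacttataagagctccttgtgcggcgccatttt
The motif was found once in the stretch of *LRP5*, 2 times in that of *GSK3B*, and 3 times in that of *CTNNB1*. Windows of 250 bases before a start were found for 8 of the 10 core genes, those other than *AXIN2* and *LRP6*, with 2 windows for *APC* and 3 for *TCF7L2*. Of these 11 windows, 8 held the GC box, as did 42.6% of all 35116 promoter windows, and those without it were 1 of *APC* and 2 of *TCF7L2*. The letters CTTTGA, the centre of the TCF/LEF motif, were in none of the windows of these 8 genes on either strand and in 11.2% of all windows. Of the 135 windows of 93 other pathway genes, 9.63% held these letters, in 10 genes, with the most matches in a window for *SP5* (3). *DKK1*, shown because it is a target gene that was downregulated, had 2 matches, 1 of which lies in the 60 bases at chr10:52314105-52314164 on the plus strand, from 176 to 117 bases before the start, with the match to the opposite strand in capitals.
DKK1: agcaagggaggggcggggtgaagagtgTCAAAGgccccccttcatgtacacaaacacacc
A match of letters is a description of the window and not a binding site.

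After TEPP-46 treatment, 3 of the 9 core genes tested were downregulated, namely the co-receptor gene *LRP5*, the kinase gene *GSK3B*, and *CTNNB1*, which encodes β-catenin. Their fitted expression in the case group was 0.674, 0.730, and 0.809 times that of the control group. Testing was done by limma on log2(FPKM + 0.1) after division by 1 factor per library, over the 13599 genes whose mean FPKM reached 0.5, and a gene counted as DE when its adjusted p did not exceed 0.05. By this rule 5.84% of all tested genes were downregulated and 7.34% were upregulated. No core gene was upregulated by limma, and none of those with a positive log2(FC) had an unadjusted p under 0.05, while 6 core genes with a negative one did. Over all tested genes, 16.8% had a positive and 16.2% a negative log2(FC) at that p. After each library was corrected for gene length, 1 core gene (*AXIN1*) had a positive and 3 had a negative log2(FC) at that p, against 16.3% and 14.2% of all tested genes. With voom, limma's method for reads, 5 core genes were downregulated (*APC* and *LRP6* in addition), where 10.9% of all genes were, and 0 were upregulated, where 9.41% of all genes were. At an unadjusted p under 0.05, voom gave 1 core gene up and 6 down, against 16.8% and 18.3% of all genes. The log2(FC) was negative in 7 of the 9, with a median of -0.32, whereas the median over all tested genes was -0.002. The case values lay below all control values in 6 of the 9 core genes and in 20.4% of all tested genes, and above them in 1 of the 9, *AXIN1*, and in 19.5% of all. In bulk RNA, a lower level in every cell and a smaller share of expressing cells cannot be told apart. The summed FPKM of the 10 genes was 155.5, 152.8, and 151.1 in the control libraries against 129.3, 131.2, and 125.6 in the case libraries, so the groups did not overlap. In fits without control replicate 1, 2, or 3 or without case replicate 3, 0 of the 9 passed, and 3, 3, 4, and 4 core genes with a negative log2(FC) had an unadjusted p under 0.05, as did 11%, 10.5%, 11.6%, and 12.1% of all tested genes. With a positive log2(FC), 1 did without case replicate 3 (*AXIN1*, where 12.7% of all genes did) and 0 did in the other 3 fits. All genes called numbered 73 up and 28 down, 56 up and 16 down, 59 up and 18 down, and 110 up and 66 down in these 4 fits. Without case replicate 1, the same 3 core genes were downregulated, where 7.81% of all genes were and 8.91% were upregulated. Without case replicate 2, there were 5 downregulated core genes (*APC* and *TCF7L2* in addition) and 1 upregulated core gene, *GSK3A*, where 12.2% and 13.2% of all genes were.

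**Figure D1:**
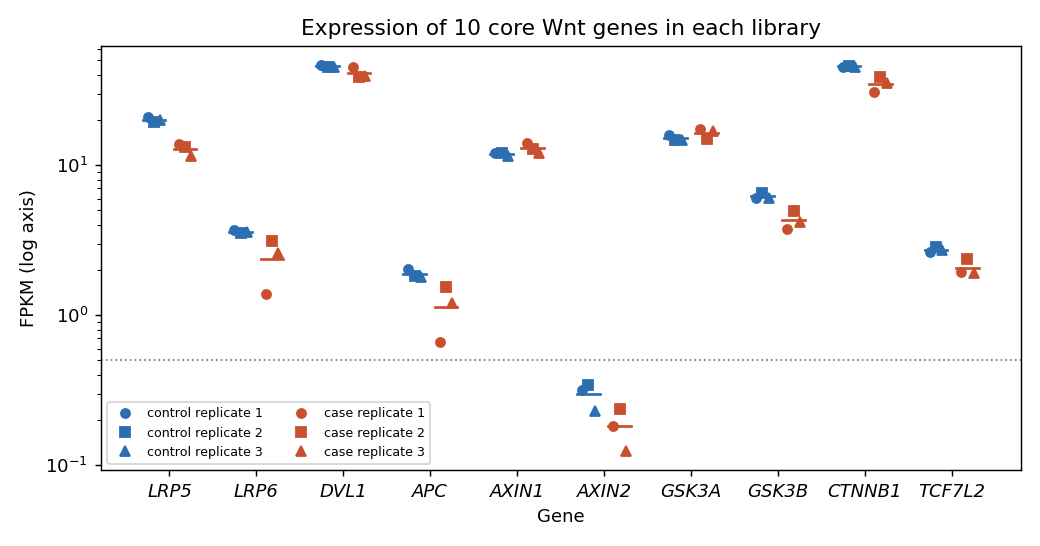
Expression of the 10 core Wnt genes in each library, with FPKM on a log axis, control replicates in blue, case replicates in red, and short lines at the group means. *DVL1* and *CTNNB1* were the most abundant in both groups, and *AXIN2* lay under the minimum of 0.5 for testing (dotted line) in all 6 libraries.

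Of the receptor-side genes, *LRP5* (ENSG00000162337, chromosome 11, 68312591 to 68449275, plus strand of GRCh38) encodes the co-receptor that binds Wnt together with Frizzled. Its FPKM was 20.9, 19.5, and 20.01 in the control libraries against 13.9, 13.2, and 11.5 in the case libraries. Every case value was lower than every control value, and the gap between the groups was wider than the range within either. The log2(FC) was -0.57 (standard error 0.10, adjusted p = 0.0167 by limma, 95% interval -0.80 to -0.34), from 1086 to 2398 reads per library. *LRP5* stayed downregulated in all alternative fits apart from the 4 named above that leave out a library, with log2(FC) values between -0.77 and -0.48 over all 21 fits.

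Its close relative *LRP6* (ENSG00000070018, chromosome 12, 12116025 to 12267044, minus strand) serves the same step and was less abundant. Its FPKM was 3.69, 3.56, and 3.58 in the control libraries against 1.38, 3.11, and 2.61 in the case libraries. The groups did not overlap, but case replicate 1 stood far below the other two. The log2(FC) was -0.59 (standard error 0.24, adjusted p = 0.134 by limma), as large as that of *LRP5* with a wider error, and it became -0.28 without case replicate 1. *DVL1* (ENSG00000107404, chromosome 1, 1335276 to 1349418, minus strand), one of 3 Dishevelled genes, had FPKM values of 46.4, 45.5, and 45.4 in the control libraries against 45.1, 39.0, and 39.5 in the case libraries. After scaling the groups overlapped, and the log2(FC) was -0.08 (adjusted p = 0.610 by limma), with a 95% interval from -0.29 to 0.14. When all libraries were instead brought to equal FPKM sums (TPM), which moved the median log2(FC) of all tested genes to -0.20, *DVL1* was downregulated (log2(FC) -0.28, adjusted p = 0.0367 by limma). Leaving out case replicate 1 gave a log2(FC) of -0.17, and leaving out case replicate 2 gave -0.02. Its exons overlap those of *TAS1R3*, which was listed at a mean FPKM of 0.219.

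Among the scaffolds of the destruction complex, *APC* (ENSG00000134982, chromosome 5, 112707518 to 112846239, plus strand) had the most negative log2(FC) of the core genes in the reported fit, -0.69, but did not pass the test (standard error 0.26, adjusted p = 0.107 by limma). Its FPKM was 2.04, 1.84, and 1.79 in the control libraries against 0.659, 1.54, and 1.21 in the case libraries. Case replicate 1 was again the lowest, and without it the log2(FC) was -0.39. With a pseudocount of 1, the log2(FC) was -0.42 for *APC* and -0.54 for *LRP5*. *LRP5* was also more negative than *APC* with correction for gene length and without case replicate 1. *AXIN1* (ENSG00000103126, chromosome 16, 287440 to 352723, minus strand), the scaffold on which the complex assembles, had FPKM values of 12.1, 12.0, and 11.5 in the control libraries against 14.1, 12.9, and 12.2 in the case libraries. It was the core gene with the highest log2(FC), 0.21 (standard error 0.10, adjusted p = 0.169 by limma), and the groups did not overlap. With TPM that value was 0.01, and with correction for gene length it was 0.33 (adjusted p = 0.0893 by limma). With correction for GC content, *AXIN1* was upregulated (log2(FC) 0.23, adjusted p = 0.0392 by limma). This call was lost when the replicate number was added as a block (log2(FC) 0.23, adjusted p = 0.0593 by limma).

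*AXIN2* (ENSG00000168646, chromosome 17, 65528563 to 65561648, minus strand) encodes the second AXIN scaffold and is itself a widely used target gene of β-catenin and TCF. It was listed at an FPKM of 0.318, 0.342, and 0.231 in the control libraries against 0.183, 0.238, and 0.125 in the case libraries. These values stand for only 10 to 32 reads per library, the groups overlapped, and the gene lay under the minimum for testing. The difference of the mean log2 values was -0.45, with p = 0.2 in a two-sided exact permutation test of 3 against 3 replicates, whose smallest possible p is 0.1. In the fit with no filter on low values, its log2(FC) was -0.44 (standard error 0.30, adjusted p = 0.535 by limma).

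Of the GSK3 kinase genes, which are close relatives, 1 was downregulated and 1 was not called. *GSK3B* (ENSG00000082701, chromosome 3, 119821321 to 120094994, minus strand) had FPKM values of 6.03, 6.54, and 6.08 in the control libraries against 3.74, 4.96, and 4.203 in the case libraries. The groups did not overlap, and case replicate 2 was the nearest to the control group. The log2(FC) was -0.45 (standard error 0.10, adjusted p = 0.0312 by limma, 95% interval -0.70 to -0.21), a call that was lost with no filter on low values (adjusted p = 0.0699), without limma's intensity trend (adjusted p = 0.0564), and with correction for gene length in a fit that had the replicate number as a block (log2(FC) -0.32, adjusted p = 0.0802). *GSK3A* (ENSG00000105723, chromosome 19, 42226225 to 42242625, minus strand) had FPKM values of 15.9, 14.7, and 14.7 in the control libraries against 17.5, 15.0, and 16.9 in the case libraries. Its groups overlapped after scaling, and its log2(FC) was 0.20 (standard error 0.10, adjusted p = 0.213 by limma). With TPM the sign of *GSK3A* turned, at -0.003. The exons of *GSK3A* overlap those of *ZNF526* on the other strand (mean FPKM 5.01), and those of *GSK3B* overlap *GSK3B-DT* (mean FPKM 0.401). The strandedness of the libraries is not given in the sources used here, so reads of such pairs cannot be told apart.

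The effector gene *CTNNB1* (ENSG00000168036, chromosome 3, 41194741 to 41260096, plus strand) had FPKM values of 45.4, 46.1, and 45.1 in the control replicates. In case replicates 1, 2, and 3 they were 30.8, 38.9, and 35.5. The control replicates were nearly the same, with an SD of 0.506 around a mean of 45.5 (n = 3), whereas the case replicates spread with an SD of 4.07 around a mean of 35.1 (n = 3) and did not reach the control range. The log2(FC) was -0.31 (standard error 0.08, adjusted p = 0.0480 by limma, 95% interval -0.50 to -0.12), from 3406 to 5601 reads per library. This was the core call nearest to the threshold, and *CTNNB1* did not pass with correction for gene length (log2(FC) -0.21, adjusted p = 0.077), with no filter on low values (log2(FC) -0.29, adjusted p = 0.0893), without the intensity trend (log2(FC) -0.31, adjusted p = 0.0886), or with the replicate number as a block (log2(FC) -0.31, adjusted p = 0.0649). *TCF7L2* (ENSG00000148737, chromosome 10, 112950247 to 113167678, plus strand), the DNA-binding partner of β-catenin, had FPKM values of 2.65, 2.83, and 2.72 in the control libraries against 1.94, 2.37, and 1.90 in the case libraries. Its groups did not overlap either, and its log2(FC) was -0.32 (standard error 0.12, adjusted p = 0.104 by limma). *TCF7L2* was downregulated with TPM (adjusted p = 0.0397), with correction for GC content (adjusted p = 0.0474), and without case replicate 2 (adjusted p = 0.0409). When the replicate block was added to the GC correction, it did not pass (adjusted p = 0.0762 by limma).

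**Figure D2:**
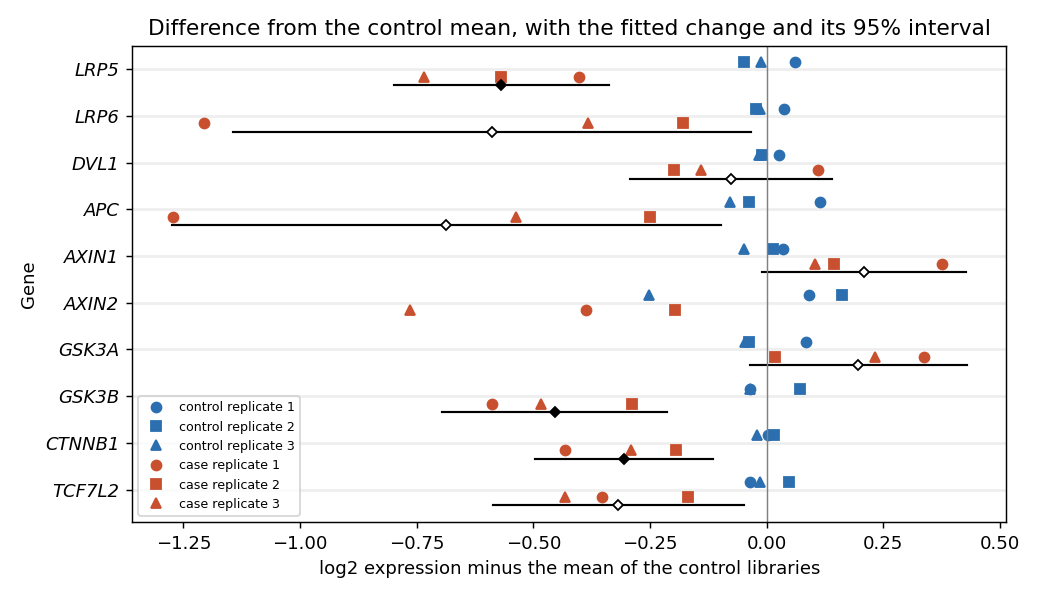
Expression of each core gene in each library relative to the mean of the control libraries, on the log2(FPKM + 0.1) scale after scaling, with control replicates in blue and case replicates in red. Diamonds and black lines give the fitted change and its 95% interval, filled for the 3 downregulated genes, and *LRP6* and *APC* show case replicate 1 at -1.21 and -1.27, far from the other case replicates.

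FPKM values are per length, so levels can be ordered between genes. In the control group the order was *DVL1* (45.8 FPKM), *CTNNB1* (45.5), *LRP5* (20.1), *GSK3A* (15.1), *AXIN1* (11.9), *GSK3B* (6.22), *LRP6* (3.61), *TCF7L2* (2.73), *APC* (1.89), and *AXIN2* (0.297). Only *DVL1* and *CTNNB1* overlapped in their values among the neighbours of this order. In the case group *DVL1* (41.2 FPKM) lay above *CTNNB1* (35.1 FPKM) with no overlap. There *LRP5* (12.9 FPKM) had moved below *GSK3A* (16.4 FPKM) and overlapped with *AXIN1* (13.03 FPKM), and *LRP6* (2.37 FPKM) overlapped with *TCF7L2* (2.07 FPKM). *CTNNB1* was more abundant than 90.6% of the tested genes and *APC* than 23.0%.

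Ratios within a library are free of the scaling between libraries and show the balance of 2 related genes, but differences that go with gene length do not cancel in them. The ratio of *GSK3A* to *GSK3B* was 2.64, 2.25, and 2.41 in the control libraries against 4.66, 3.02, and 4.02 in the case libraries. Every case library therefore held relatively more *GSK3A* than any control library, and the mean log2 ratio differed by 0.66 (p = 0.1, the smallest that an exact permutation test of 3 against 3 can give, and 0.15 after adjustment over the 3 ratios examined). The ratio of *AXIN1* to *AXIN2* was 38.0, 35.1, and 49.8 in the control libraries against 77.0, 53.9, and 97.6 in the case libraries, a log2 difference of 0.87 with the same exact p of 0.1 (adjusted 0.15), although its denominator rests on few reads. The ratio of *LRP5* to *LRP6* was 5.66, 5.47, and 5.58 in the control libraries against 10.1, 4.25, and 4.39 in the case libraries. Case replicate 1 lay above the control range and case replicates 2 and 3 below it, so that the mean log2 difference was 0.04 (exact permutation p = 1), and -0.37 without case replicate 1. With 3 against 3 libraries, the exact permutation test cannot give any of the 3 ratios a p under 0.1. The exons of *GSK3A* spanned 4126 bases and those of *GSK3B* 8006. Their log2(FC) values were 0.20 and -0.45 in the reported fit and 0.17 and -0.32 after correction for gene length. The ratios themselves were not tested with this correction, and reads of *ZNF526* cannot be told apart from those of *GSK3A*.

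**Figure D3:**
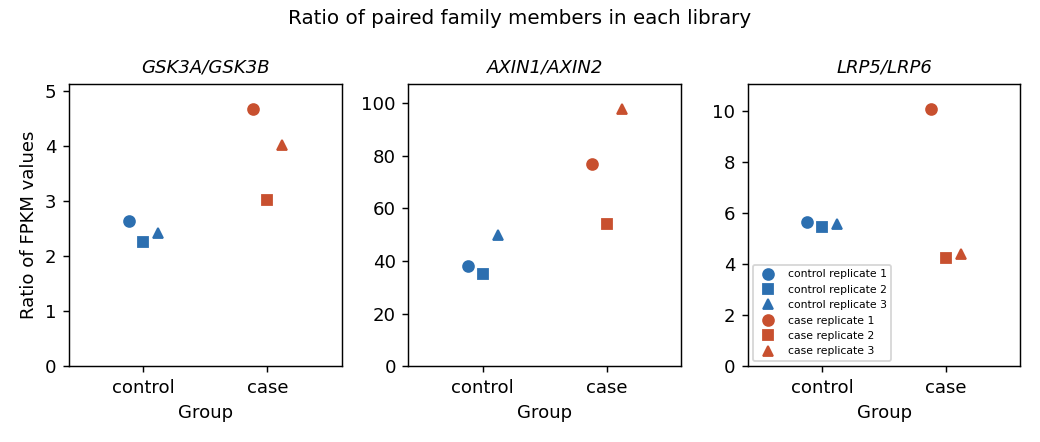
Ratio of the FPKM values of *GSK3A* to *GSK3B*, *AXIN1* to *AXIN2*, and *LRP5* to *LRP6* in each library, with control replicates in blue and case replicates in red on axes that start at 0. The case values lie above the control values in the first 2 panels, while in the third they lie on both sides, at 10.1, 4.25, and 4.39.

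Properties of the libraries moved with these results. Replicates agreed less closely among the case libraries, where the median SD of a gene was 0.189 on the log2 scale, than among the control libraries, where it was 0.0887. The reported limma fit takes 1 spread per gene for both groups and draws it toward that of genes at a like level. Mitochondrially encoded genes took 11.2% to 11.3% of the summed FPKM of each control library and 13.2% to 14.7% of that of each case library. Expression differed with the exon length of a gene. The 1206 tested genes with at least 10000 bases of exons had a median log2(FC) of -0.30, and 16.4% of them were downregulated. Among the 4355 with at least 6000 bases, which include 7 of the 9 core genes tested and the 3 called, the median was -0.17 and 11.5% were downregulated, against 0.08 and 3.19% among the 9244 shorter genes. In the class of at least 10000 bases, the median difference from the control mean was -0.45, -0.12, and -0.31 in case replicates 1, 2, and 3. The exons of *APC* and *LRP6* spanned 12440 and 10337 bases, and their log2 differences from the control mean, -1.27, -0.25, and -0.54 for *APC* and -1.21, -0.18, and -0.38 for *LRP6*, followed the same order of the case replicates. So did those of *GSK3B* (-0.59, -0.29, and -0.48) and of *CTNNB1* (-0.43, -0.19, and -0.29), whose exons spanned 8006 and 6614 bases. *LRP5* had another order, with case replicate 3 the lowest at -0.74 and case replicate 1 the highest at -0.40. *TCF7L2* (6736 bases) differed from the control mean by -0.35, -0.17, and -0.43, also with case replicate 3 the lowest, and *AXIN1* (7487 bases) was higher in every case replicate, by 0.38, 0.15, and 0.10. After the correction for gene length, the log2(FC) was -0.41 for *APC* and -0.37 for *LRP6*, while *LRP5* (6164 bases, log2(FC) -0.49, adjusted p = 0.0272 by limma) and *GSK3B* (log2(FC) -0.32, adjusted p = 0.0475 by limma) were still downregulated. What part length or RNA quality has in the values of these genes was not tested beyond this correction.

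Around the core, 129 further genes of the pathway were examined in 7 lists by role, of which 119 were in the table and 87 were tested. Of these 87, 7 (8.05%) were upregulated and 13 (14.9%) downregulated by limma, with a median log2(FC) of -0.07. Of all tested genes, 7.34% were upregulated and 5.84% downregulated. The split changed with the scaling, with 4 upregulated and 17 downregulated without scaling and 3 and 26 with TPM. All tested genes moved the same way, with 4.87% upregulated and 8.27% downregulated without scaling and 2.8% and 17.5% with TPM. The split of the 87 was 2 and 3 with no filter on low values, where 1.24% and 0.634% of all genes were called, and 2 and 7 without the intensity trend, where 3.21% and 3.06% were. Leaving out any single control replicate left 0 of the 87 called, with 10, 10, and 11 genes up and 20, 18, and 20 genes down at an unadjusted p under 0.05, and leaving out case replicate 3 left only *FOSL1*. Of all tested genes, 12.7%, 11.9%, and 12.9% were up and 11%, 10.5%, and 11.6% down at that p without control replicates 1, 2, and 3.

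**Figure D4:**
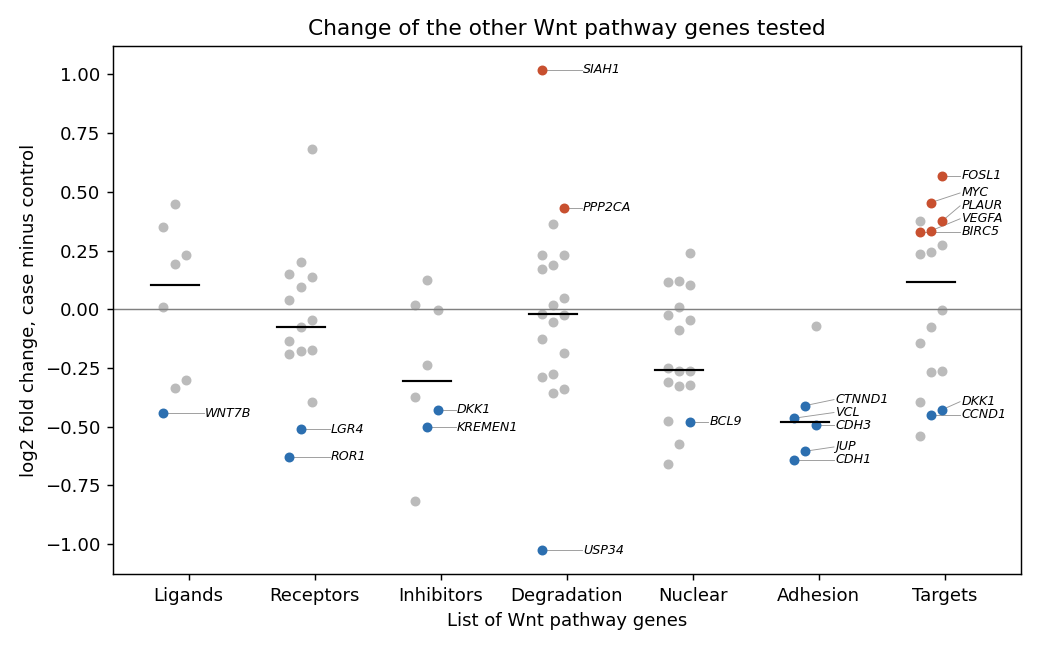
The log2(FC), case minus control, of each tested gene in the 7 lists of other Wnt pathway genes, with upregulated genes in red, downregulated genes in blue, the rest in grey, and black lines at the medians. Of the 6 adhesion genes, 5 are blue, between -0.64 and -0.41, and all 5 red target genes lie between 0.33 and 0.57.

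Of the genes for adherens junctions, where β-catenin binds cadherins, 5 of the 6 tested were downregulated by limma and none was upregulated. Of all tested genes, 5.84% were downregulated and 7.34% upregulated. The case values of all 6 adhesion genes lay below the control values, as did those of 20.4% of all tested genes. The median log2(FC) of the 6 was -0.48. *CDH1*, which encodes E-cadherin, had FPKM values of 3.34, 3.50, and 3.4 in the control libraries against 1.83, 2.32, and 2.00 in the case libraries (log2(FC) -0.64, standard error 0.11, adjusted p = 0.0156 by limma). *JUP*, which encodes plakoglobin, the close relative of β-catenin, had FPKM values of 22.0, 21.5, and 20.5 in the control libraries against 15.1, 12.0, and 12.9 in the case libraries (log2(FC) -0.60, adjusted p = 0.0204 by limma). In both genes the groups were well apart. *CDH3*, which encodes P-cadherin, fell by 0.49 on the log2 scale (adjusted p = 0.0221), and *VCL*, which encodes the actin-linked vinculin, fell by 0.46 (adjusted p = 0.0266 by limma). *CTNND1*, the gene of p120-catenin, fell by 0.41 (adjusted p = 0.0425 by limma) and is named here after its value was seen. *CTNNA1*, which encodes α-catenin and was the most abundant of the list, had FPKM values of 53.2, 54.1, and 52.5 in the control libraries against 46.3, 50.04, and 47.7 in the case libraries. Its log2(FC) of -0.07 did not pass the test (adjusted p = 0.480 by limma), and its 95% interval was -0.23 to 0.08. With TPM, where 17.5% of all genes were downregulated, *CTNNA1* was as well (log2(FC) -0.27, adjusted p = 0.0354 by limma), so that all 6 were, whereas its log2(FC) was 0.10 with correction for gene length. With correction for gene length, 3 of the 6 (*CDH1*, *CDH3*, and *JUP*) were still downregulated. Only 2 (*CDH1* and *JUP*) were when the replicate block was added or when the intensity trend was left out. Of the 13599 tested genes, 606, 372, and 416 were downregulated in these fits, in that order. With no filter on low values only *CDH1* was downregulated, where 0.634% of all genes were. Without control replicate 1, 2, or 3 or case replicate 3, none of the 6 was called. In each of these 4 fits, 5 had an unadjusted p under 0.05 with a negative log2(FC). So did 11%, 10.5%, 11.6%, and 12.1% of all tested genes. *CTNND1* was also not called without case replicate 1. Over the 21 alternative fits, its log2(FC) lay between -0.61 and -0.24, and that of *VCL* between -0.66 and -0.25. *CDH16*, the kidney cadherin, was listed at 0 in 5 libraries and at 0.015 FPKM in control replicate 1.

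Of the 18 target genes tested, 5 were upregulated and 2 downregulated, against 2 and 4 with TPM, 3 and 3 without scaling, and 1 (*FOSL1*) and 2 both with no filter on low values and without the intensity trend. Of all tested genes, 7.34% were upregulated and 5.84% downregulated in the reported fit. These shares were 1.24% and 0.634% with no filter and 3.21% and 3.06% without the intensity trend. The shifts of the targets with the scaling stand beside the 2.8% up and 17.5% down with TPM and the 4.87% and 8.27% without scaling among all tested genes. *FOSL1*, which encodes the AP-1 subunit FRA-1 and was the most abundant target, had FPKM values of 123, 120, and 123 in the control libraries against 175, 168, and 173 in the case libraries. Its log2(FC) was 0.57 (standard error 0.07, adjusted p = 0.00879 by limma), and the gap between the groups was wider than the range within either. *MYC*, the gene of a growth-promoting transcription factor, had FPKM values of 52.7, 48.9, and 53.2 in the control libraries against 72.8, 63.3, and 65.3 in the case libraries (log2(FC) 0.45, adjusted p = 0.0245 by limma). *PLAUR*, which encodes the urokinase receptor, rose by 0.38 (adjusted p = 0.0325 by limma), and *VEGFA*, which encodes an angiogenic growth factor, by 0.33 (adjusted p = 0.0480). *BIRC5*, the gene of survivin, rose by 0.33 (adjusted p = 0.0495 by limma) and is named after its value was seen. With the replicate number as a block, *VEGFA* (adjusted p = 0.0712 by limma) and *BIRC5* (adjusted p = 0.0602 by limma) did not pass, *BIRC5* did not pass with correction for gene length, and *VEGFA* did not pass in any fit without 1 library. With correction for gene length, *VEGFA* was upregulated with and without the block. With the block and length correction together, *MYC* and *PLAUR* did not pass. Over the 21 alternative fits, the log2(FC) of *VEGFA* lay between 0.14 and 0.66. With TPM neither *PLAUR*, *VEGFA*, nor *BIRC5* passed, and without scaling *VEGFA* and *BIRC5* did not. In the other direction, *CCND1*, which encodes cyclin D1, had FPKM values of 43.4, 44.8, and 45.2 in the control libraries against 29.1, 35.0, and 28.9 in the case libraries (log2(FC) -0.45, standard error 0.08, adjusted p = 0.0193 by limma). Of the other targets, *ZNRF3*, *RNF43*, *NOTUM*, *TCF7*, and *SP5* were among those tested and not called, with log2(FC) values of -0.07, -0.39, -0.003, -0.26, and 0.24, while *NKD1*, *LEF1*, *APCDD1*, and *TNFRSF19* were under the minimum for testing. *RNF43* had a control mean of 0.710 FPKM and a case mean of 0.487 FPKM, so it reached the minimum of 0.5 only through its control values. *NKD1*, which encodes an inhibitor that binds Dishevelled, was listed at an FPKM of 0.191, 0.237, and 0.198 in the control libraries against 0.0549, 0.0966, and 0.0523 in the case libraries, from 14 to 74 reads per library. Its groups did not overlap, and its values are given after they were seen, with no test.

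Of the 8 secreted or membrane-bound inhibitors tested, 2 were downregulated, where 5.84% of all tested genes were. *DKK1*, which encodes a secreted antagonist of LRP5 and LRP6 and is also a target gene, had FPKM values of 79.2, 81.1, and 72.3 in the control libraries against 51.0, 56.2, and 56.7 in the case libraries. The groups did not overlap, and the log2(FC) was -0.43 (standard error 0.08, adjusted p = 0.0179 by limma). *KREMEN1*, whose product is a receptor of DKK1, had FPKM values of 2.91, 3.11, and 2.83 in the control libraries against 1.79, 2.27, and 1.80 in the case libraries (log2(FC) -0.50, adjusted p = 0.0354 by limma). It did not pass after correction for gene length (adjusted p = 0.0595), also with the replicate block added, or with no filter on low values (adjusted p = 0.0856).

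Of the 8 ligand and ligand-secretion genes tested, 7 were not called and, against 5.84% of all tested genes, 1 was downregulated. This was *WNT7B*, the most abundant Wnt gene in these cells, with FPKM values of 19.0, 18.6, and 19.7 in the control libraries against 13.9, 14.5, and 11.6 in the case libraries (log2(FC) -0.44, standard error 0.10, adjusted p = 0.0311 by limma). The call was lost with no filter on low values (adjusted p = 0.0774), without the intensity trend (adjusted p = 0.0636), and with the replicate block and length correction together (adjusted p = 0.0603). Of the 15 receptor-side genes tested, 2 were downregulated, where 5.84% of all tested genes were. *ROR1*, which encodes a receptor tyrosine kinase for Wnt ligands, had FPKM values of 3.14, 3.26, and 3.38 in the control libraries against 1.67, 2.42, and 1.87 in the case libraries (log2(FC) -0.63, adjusted p = 0.0256 by limma). *LGR4*, the gene of an R-spondin receptor, fell by 0.51 (adjusted p = 0.0261 by limma). With no filter on low values neither *ROR1* (adjusted p = 0.0684) nor *LGR4* (adjusted p = 0.0645) passed, and *ROR1* was also lost with the block and length correction together (adjusted p = 0.0532) and *LGR4* without the intensity trend (adjusted p = 0.0518). *RSPO3*, the gene of an R-spondin ligand and named here after its value was seen, had the largest log2(FC) of the list in size, 0.68 (standard error 0.21, adjusted p = 0.0649 by limma), with FPKM values of 1.25, 1.47, and 2.06 in the control libraries against 2.24, 2.14, and 3.03 in the case libraries. Its groups did not overlap, and it was upregulated with the replicate block, with voom, with the GC correction (with and without the block), and without case replicate 2. The 7 Frizzled genes tested had adjusted p values of at least 0.313 by limma, and *FZD6* was upregulated with the GC correction alone and without case replicate 1. The most abundant gene of this list, *DVL2*, had a log2(FC) of -0.05 (adjusted p = 0.806 by limma), which was 0.04 without case replicate 3.

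Of the 19 genes for the degradation of β-catenin that were tested, 2 were upregulated and 1 was downregulated, where 7.34% and 5.84% of all genes were. With TPM these counts were 1 and 4, where 2.8% and 17.5% of all genes were called. *SIAH1*, which encodes an E3 ubiquitin ligase with β-catenin among its substrates, had FPKM values of 0.702, 0.838, and 0.753 in the control libraries against 1.35, 1.56, and 1.82 in the case libraries. Every case value was above every control value, and the log2(FC) of 1.02 (standard error 0.18, adjusted p = 0.0161 by limma), from 88 to 188 reads per library, was the highest among the 87 genes. *PPP2CA*, the catalytic subunit gene of protein phosphatase 2A, rose by 0.43 (adjusted p = 0.0357 by limma). This call was lost without scaling, with TPM, with quantile normalization, with no filter on low values, and without the intensity trend. *USP34*, which encodes a deubiquitinase of AXIN, had FPKM values of 5.12, 5.46, and 4.94 in the control libraries against 1.40, 3.77, and 2.47 in the case libraries (log2(FC) -1.03, standard error 0.28, adjusted p = 0.0480 by limma). Its 18125 bases of exons made it one of the long genes, and after correction for gene length its log2(FC) was -0.64 (adjusted p = 0.0738 by limma). The call was also lost with no filter on low values (adjusted p = 0.137), without the intensity trend (adjusted p = 0.0861), and with robust estimation (adjusted p = 0.0546), where the log2(FC) stayed at -1.01, -1.03, and -1.03. *CSNK1G2*, a casein kinase gene and the most abundant of the list, had a log2(FC) of 0.05 (adjusted p = 0.764 by limma), which was -0.03 without scaling.

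Of the 18 nuclear partners tested, 1 was downregulated, where 5.84% of all tested genes were. With TPM, 6 of the 18 were, where 17.5% of all genes were. The list had a median log2(FC) of -0.26. The case values of 8 genes lay below all control values, as did those of 20.4% of all tested genes. *BCL9*, which encodes a coactivator that binds β-catenin, had FPKM values of 7.50, 7.81, and 7.08 in the control libraries against 5.01, 5.58, and 4.58 in the case libraries (log2(FC) -0.48, standard error 0.10, adjusted p = 0.0233 by limma). It did not pass with no filter on low values (adjusted p = 0.0585) or with the block and length correction together (adjusted p = 0.0521). With voom, where 10.9% of all genes were downregulated, 5 of the 18 were, *BCL9*, *BCL9L*, *EP300*, *TLE2*, and *TLE4*. *TLE5*, a corepressor-related gene and the most abundant of the list, had a log2(FC) of 0.10 (adjusted p = 0.492 by limma), and -0.09 with TPM.

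Genes whose log2 values over the 6 libraries were among the most like those of *CTNNB1* were *FNDC3A* (Pearson's r = 0.999) and *MDN1* (0.998) among the 13598 other tested genes. Within the pathway lists and the core, they were *GSK3B* (0.987), *USP34* (0.980), and *ROR1* (0.979). All of these named genes had, as *CTNNB1* did, their lowest value in case replicate 1 and their highest case value in case replicate 2. The correlations describe 6 libraries that share 1 contrast, and carry no test.

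The labelled cell type was checked against marker genes. Of the epithelial markers, *KRT19* was the most abundant, with FPKM values of 358, 345, and 352 in the control libraries against 384, 300, and 336 in the case libraries. None of the 6 tubule epithelial markers tested was called by limma, where 13.2% of all tested genes were. An unadjusted p under 0.05 was found for 1 of them, *KRT8*, and for 33.1% of all tested genes. The log2(FC) of *KRT8* was -0.27, with the case values below all control values, and 3 of the 6 had a negative log2(FC). The proximal tubule genes *LRP2* and *CUBN*, which encode the endocytic receptors megalin and cubilin, were at most at 0.00686 and 0.0508 FPKM. In all, 9 of the 15 tubule epithelial markers in the table lay under the minimum for testing, with mean FPKM values of at most 0.162, among them *GGT1*, *ANPEP*, and *AQP1*, so the labelled proximal tubular identity was not seen in these transcripts. Markers of other cell types were near 0. The summed FPKM of the listed fibroblast markers was at most 0.454 (most abundant *COL1A1*), that of the endothelial markers at most 0.101 (*PECAM1*), and that of the other nephron segments at most 0.119 (*NPHS1*). Of the immune markers, *CD14* was at 0.882, 0.621, and 0.915 FPKM in the control libraries against 0.286, 0.231, and 0.276 in the case libraries. These values stand for 7 to 31 reads per library. *CD14* was called downregulated (log2(FC) -1.24, adjusted p = 0.0384 by limma). Its control mean was 0.806 FPKM and its case mean 0.264 FPKM, so it reached the minimum of 0.5 for testing only through its control values. The call therefore rests on a filter that the difference between the groups helped to decide. *CD68* was at most at 0.030 FPKM.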

How the data were processed

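RNA of HK-2 cells was measured in 6 libraries, 3 control and 3 case. Per the labels and the methods of the study, the authors used HISAT2 2.1.0 for alignment to GRCh38.p13, counted them per gene with HTSeq 0.6.0, and deposited FPKM values. The gene annotation version and strandedness are not given in the sources used here. The 10 members and all lists were chosen with earlier results of these data known. FPKM was divided by median-of-ratios factors over the tested genes, which would shift all genes alike if wrong, and log2(FPKM + 0.1) was fitted in R 4.3.3 with limma 3.58.1 (intensity trend, no covariates, mean FPKM of at least 0.5, Benjamini-Hochberg over 13599 genes). Fold changes on this scale understate the change of low genes. Symbols and positions came from GENCODE release 44 for 29063 genes.

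Low FPKM values were whole multiples of what 1 read is worth, and all 27922 genes above 0 were resolved to whole reads within 0.003. For 2900 genes with few reads, the solution was multiplied to bring the gene length nearest to the annotated one. For 224 genes, a factor shared by all 6 libraries was restored to make the length whole. The reads of such genes, and the library sums that include them, rest on these choices. As no molecular identifiers were used, reads do not count independent molecules. The deposited values included no column outside the 6 libraries. Ratios were compared by exact permutation. Named genes were the 10 members, up to 4 DE genes per direction and the most abundant gene of each list, the 3 genes most like *CTNNB1* in all genes and in the lists, and the most abundant or absent markers. Some genes that this rule would name are not reported here. Alternatives were other pseudocounts (1 and 0.01), filters, scalings, estimation settings, the replicate number as a block, length and GC corrections, voom on recovered reads, and leaving out each replicate. Sequences were read from RefSeq windows of GRCh38.p14.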

Additional observations from a re-analysis of the deposited data

How the results depend on the processing

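The direction of the 3 downregulated core genes held in all 21 alternative fits, with log2(FC) between -0.77 and -0.48 for *LRP5*, between -0.66 and -0.32 for *GSK3B*, and between -0.51 and -0.21 for *CTNNB1*, and they passed the threshold in 17, 14, and 12 of these fits. As reported, 998 genes were up and 794 down among all tested genes, 0 and 3 in the core, and 7 and 13 among the other pathway genes. These 3 pairs became 347 and 177, 0 and 1, and 2 and 3 with no filter, where more genes were tested, and 436 and 416, 0 and 1, and 2 and 7 without the intensity trend. They became 662 and 1124, 0 and 3, and 4 and 17 without scaling, and 381 and 2383, 0 and 5, and 3 and 26 with TPM, in which *GSK3A* was at -0.0026. For voom on recovered reads they were 1280 and 1482, 0 and 5, and 8 and 19. The GC correction, chosen after seeing the data, gave 1766 and 1477, 1 (*AXIN1*) and 4, and 14 and 20. The cause of these differences was not tested.

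The replicate number as a block gave 848 and 762, 0 and 2 (*CTNNB1* at an adjusted p of 0.0649 by limma), and 6 and 14, with the length correction 526 and 372, 0 and 1, and 5 and 5, and with the GC correction 1450 and 1198, 0 and 3, and 9 and 17. Same-numbered libraries of the groups did not deviate together (correlations of 0.063, 0.0999, and -0.053 for numbers 1, 2, and 3), and 2 of 6 libraries correlated best with their own number, so the numbers do not establish pairs.

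Leaving out 1 replicate gave 56 to 1797 genes up and 16 to 1655 down among all tested genes, 0 to 1 up and 0 to 5 down in the core, and 0 to 8 up and 0 to 20 down among the other pathway genes, with fewer samples by construction. Values that turned their sign were those of genes not called as reported, although *CTNNA1* was called with TPM and *GSK3A* without case replicate 2. *CSNK1G2* was at -0.027 without scaling, -0.15 with TPM, -0.080 with quantile normalization, and between -0.047 and 0.12 over the fits without 1 replicate, *TLE5* at -0.095 with TPM and -0.0072 with quantile normalization, *DVL2* between -0.16 and 0.044 over the fits without 1 replicate, and *CTNNA1* at 0.10 with the length correction, with and without the block. The log2 ratio of *LRP5* to *LRP6* differed by -0.37 to 0.26 when 1 replicate was left out, and those of the other 2 pairs kept their direction. Few reads stood behind some low genes, with 10 to 32 per library for *AXIN2*, 7 to 31 for *CD14*, and 2 to 4 for *LEF1*.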
